A study of Mus musculus with 30 samples.

Results

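Transcript levels of 7 genes of the ovarian (granulosa cell) pathway, Rspo1, Lgr5, Wnt4, Foxl2, Runx1, Irx3 and Irx5, were followed in cultured fetal mouse testes. The genes were taken by symbol, as a set known for pregranulosa cell fate, and matched to 7 of the 49315 gene identifiers in the count tables. The 30 libraries came from testes of C57BL/6 fetuses at gestational day 14. The organs were cultured on inserts for 24 h, and all libraries, controls included, came from cultures that held the solvent dimethyl sulfoxide. The groups were 15 cultures with vehicle alone, 6 with mono-(2-ethylhexyl) phthalate (MEHP, the active monoester of a common plasticizer) at 100 µM, 5 with all-trans retinoic acid (ATRA, the vitamin A metabolite that binds retinoic acid receptors) at 1 µM and 4 with both compounds at those doses. The second number in the sample titles, whose meaning is not given, was below 500 in the ATRA, MEHP + ATRA and 9 vehicle libraries (the lower range) and above 500 in the MEHP and the other 6 vehicle libraries (the upper range). Each treatment was therefore compared with vehicle libraries from the same range. The questions were whether genes of the female programme changed in a fetal testis exposed to either compound, and whether MEHP altered the response to ATRA.

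In the fetal ovary the secreted protein R-spondin 1 (Rspo1) binds receptors of the LGR family, of which Lgr5 is one, and so stabilises the receptors for WNT ligands such as Wnt4. This raises beta-catenin activity, which together with the transcription factors Foxl2 and Runx1 maintains pregranulosa cell identity and opposes the Sertoli cell programme built on Sox9. Irx3 and Irx5 are neighbouring homeobox genes that act in pregranulosa cells and in the contacts they form with germ cells. In the normal fetal testis these genes are held low in Sertoli cells, although Wnt4, Rspo1 and Runx1 are also known from other gonadal cells, including the surface epithelium and stroma.

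Libraries held 17551454 to 29306917 counts. Textbook target genes of each compound were read first. With ATRA, the retinoic acid receptor targets Cyp26a1 and Rarb rose by log2 6.10 ± 0.31 (SE; adjusted p = 2.32e-15) and 3.85 ± 0.16 (adjusted p = 1.26e-17) in edgeR's quasi-likelihood test. With MEHP, Angptl4 and Cpt1a, targets of the fatty acid receptors called PPARs, rose by log2 1.39 ± 0.07 (adjusted p = 4.4e-14) and 0.61 ± 0.07 (adjusted p = 6.41e-07) in the same test. Of the lists that hold these genes, 6 of 7 retinoic acid targets rose with ATRA and 4 of 6 PPAR targets rose with MEHP. Neither list moved with 1 compound only. MEHP alone raised 3 of 7 retinoic acid targets, while 2.88% of all genes tested rose. ATRA lowered 1 of 6 PPAR targets, Angptl4 (log2 -0.34 ± 0.07, adjusted p = 0.000714, edgeR), while 18.1% of all genes changed. All 10 Sertoli cell markers and all 7 fetal Leydig cell markers averaged above 1 CPM (counts scaled to library size) in every group. In bulk tissue a smaller number of cells and less RNA per cell cannot be told apart.

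ATRA raised 4 of the 7 genes and lowered 0 (edgeR, adjusted p under 0.05), while 9.06% of the 19323 genes tested rose and 18.1% changed in either direction. DESeq2 also called 4, and limma-voom called 6 (with 28.6% of all genes), of which Rspo1 was a fall. The lower range fitted alone also called 6. The median log2 fold change of the 7 genes was 0.75, beside -0.000183 over all genes. With MEHP + ATRA 5 of 7 rose and 0 fell, with a median of 0.95 beside -0.0141 over all genes. DESeq2 and limma-voom each called 4 there, without Irx5. Of all genes tested, 14.3% rose and 29% changed in that comparison. MEHP alone raised 1 of the 7, Wnt4, and lowered 0, with a median of 0.10 beside -0.014, where 2.88% of all genes rose and 4.72% changed. The MEHP + ATRA and ATRA comparisons share their vehicle libraries.

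**Figure D1:**
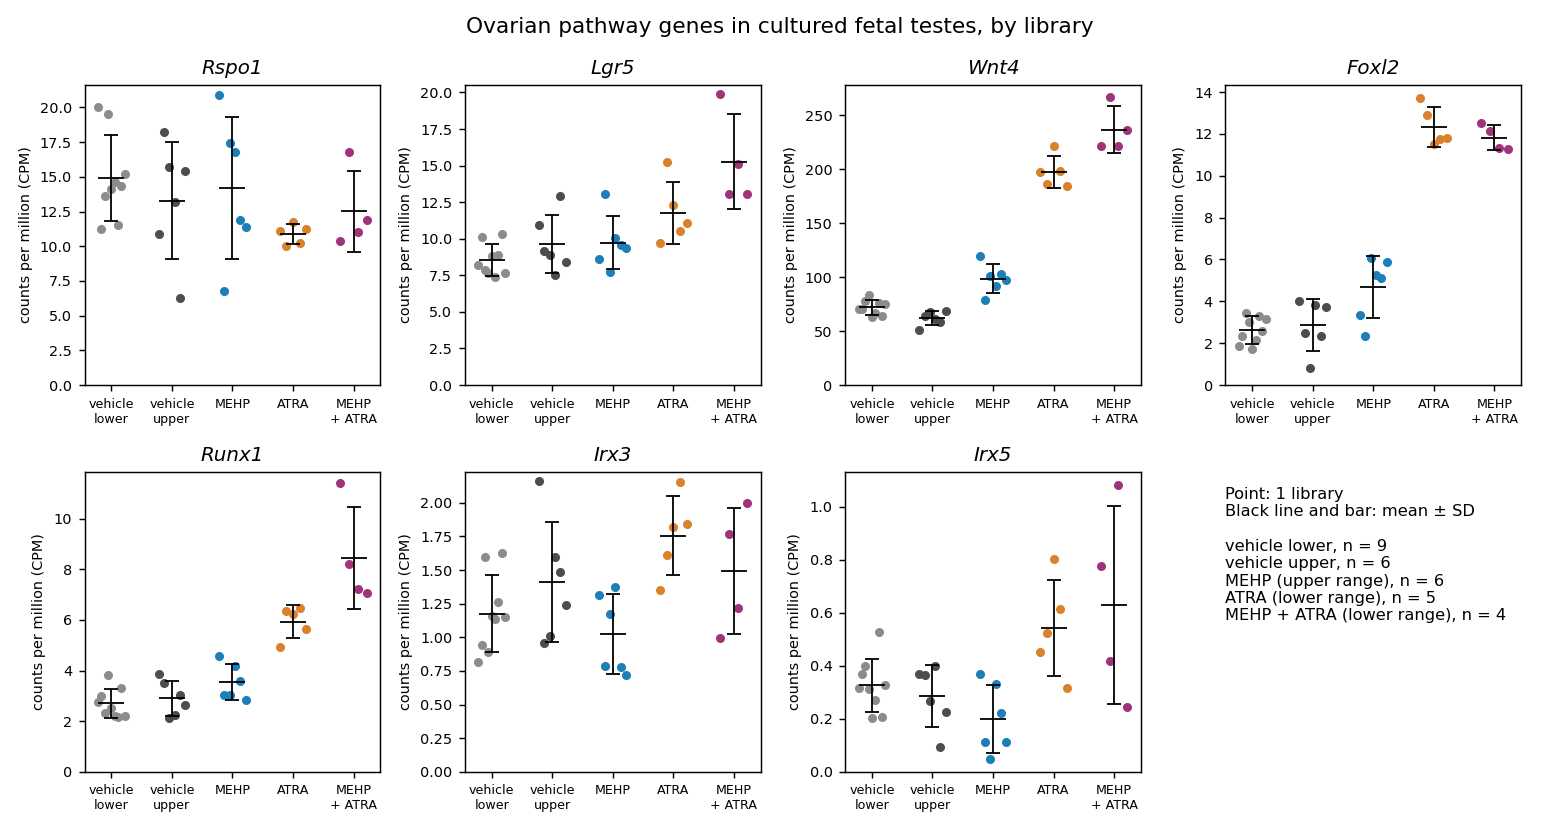
Level of each gene in each library, in CPM (1 panel per gene, axis from 0), by group. Points are libraries and black lines are the mean ± SD. Foxl2 and Wnt4 in all 9 libraries with ATRA lay above every vehicle library, whereas Rspo1 overlapped between groups throughout.

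Sequence before the RefSeq transcription start was examined because 4 of the genes rose together with a receptor ligand. RefSeq promoter windows (250 bases before the start, build GRCm38.p6) were matched for 5 of the 7 genes, with 2 starts for Runx1. Retinoic acid receptors bind a pair of half-sites, searched here as AGGTCA with the variant AGTTCA, the variant GGGTCA and the variant GGTTCA. The arrangement known as DR5 is a direct repeat with 5 bases between the half-sites. Both strands were searched, and overlapping matches were allowed. The windows of Cyp26a1 and Rarb each held 1 DR5, shown here as the reference for what was searched, with the half-sites in capitals.
Rarb, chr14:16575513-16575529, minus strand: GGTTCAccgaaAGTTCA
Cyp26a1, chr19:37697776-37697792, minus strand: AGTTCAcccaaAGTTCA
These sites began 53 and 32 bases before the respective RefSeq start. Among all 32851 windows in the table, 0.0883% held a DR5 and 38.6% held at least 1 half-site. None of the 6 windows of Rspo1, Wnt4, Foxl2, Runx1 and Irx3 held a half-site, a DR5, the TCF/LEF motif CTTTGA (13.8% of all windows) or the RUNX motif TGTGGT (14.0%). Absence from a window this short says only that these letters are not in it. The Foxl2 and Irx3 windows also lay inside the GENCODE M21 span of their own gene. Counted from the far end, 0 of their bases came before an annotated exon (also 0 for Rarb), against 104 of 250 for Wnt4. For Foxl2 and Irx3 the search therefore did not cover sequence upstream of the annotated gene.

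The windows were also compared by CpG dinucleotides. Wnt4 held 44 CpG in 250 bases (85.2% G + C), the proximal Runx1 start 27 (67.6%), Foxl2 22 (70.8%), Rspo1 22 (66.8%) and Irx3 13 (56.0%), beside a median of 6 (quartiles 2 and 16) and 52.4% G + C (45.2 and 61.2) over all windows. Wnt4, Foxl2, Rspo1 and the proximal Runx1 start thus lay above the upper quartile in both, and Irx3 between the quartiles. The Foxl2 and Irx3 values are of sequence inside the annotated gene. The distal Runx1 start held 2 (45.6%). The part of the window that overlaps no annotated exon is shown for Wnt4 and for the proximal Runx1 start, as members that rose with ATRA, with each CpG in capitals.
Wnt4, chr4:137277385-137277488, plus strand: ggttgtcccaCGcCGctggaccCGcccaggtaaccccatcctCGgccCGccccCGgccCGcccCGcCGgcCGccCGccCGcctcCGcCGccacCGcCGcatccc
Runx1, chr16:92697330-92697579, minus strand: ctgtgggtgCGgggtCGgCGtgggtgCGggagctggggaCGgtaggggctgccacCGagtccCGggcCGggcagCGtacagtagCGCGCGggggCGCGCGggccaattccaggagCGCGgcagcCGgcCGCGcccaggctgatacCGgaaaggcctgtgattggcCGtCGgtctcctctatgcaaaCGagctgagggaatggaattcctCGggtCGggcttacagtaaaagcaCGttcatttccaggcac

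Rspo1 (ENSMUSG00000028871, chr4:124986430-125009099, plus strand), the secreted ligand at the head of the pathway, did not pass edgeR's test in any treatment with all libraries fitted. It stood at 11.2, 14.4 and 20.1 CPM (lowest, median and highest of 9) in lower-range vehicle and at 6.28, 14.3 and 18.2 CPM in the 6 upper-range vehicle libraries. With MEHP it ran from 6.80 to 20.9 CPM with a median of 14.3. The MEHP libraries thus spread as widely as their vehicle libraries, and the log2 fold change was 0.10 ± 0.21 (SE; adjusted p = 0.904, edgeR).
With ATRA Rspo1 was 11.1, 10.03, 11.7, 10.3 and 11.2 CPM, and with both compounds 10.4, 16.8, 11.03 and 11.9 CPM. Of the 5 ATRA libraries 4 lay below all 9 vehicle libraries, with a coefficient of variation of 6.50% against 20.6% in vehicle. The log2 fold change with ATRA was -0.46 ± 0.21 (adjusted p = 0.136, edgeR), which passed the threshold when only the lower range was fitted (-0.45, adjusted p = 0.0165) and in limma-voom (-0.45, adjusted p = 0.0479). With both compounds it was -0.25 ± 0.22 (adjusted p = 0.434). Rspo1 is thus the member whose value was below 0 in both ATRA comparisons.

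Rspo1 moved from library to library with the markers of the surface (coelomic) epithelium, a relation examined after its values were seen. No marker sum of another cell type was set against the members, so the adjustment over 7 genes below does not cover this choice. The summed level of 8 such markers, led by Upk3b, ran from 65.3 to 164 CPM in lower-range vehicle, 11.6 to 133 in upper-range vehicle, 26.2 to 147 with MEHP, 74.1 to 196 with ATRA and 106 to 187 with both, and none of the 8 was at 0 in all libraries. The vehicle library with the sum of 11.6 CPM (replicate 11) held the lowest Rspo1 of all vehicle libraries, 6.28 CPM, and the MEHP library with 26.2 (replicate 2) held the lowest of its group, 6.80 CPM. These 2 libraries also held the highest Lgr5 of their groups, 12.9 and 13.1 CPM. Vehicle replicate 11 also had the highest Sertoli (3453 CPM) and Leydig (3383 CPM) marker sums of all libraries. Its germ cell marker sum, 427.6 CPM, was the lowest among vehicle libraries. Which of these sums goes with its low Rspo1 was not tested. Over the 15 vehicle libraries log2 Rspo1 followed the log2 sum with Pearson's r = 0.88 (permutation p = 0.00027, adjusted p = 0.00189 over 7 genes) and Spearman's rho = 0.74 (permutation p = 0.00275, adjusted p = 0.0192), and r was 0.59 without the 2 libraries farthest from the median sum.
The same relation was computed within each range. In the 6 upper-range vehicle libraries r was 0.96 (exact permutation p = 0.00833, adjusted p = 0.0583) and rho 0.89 (exact permutation p = 0.0333). In the 9 lower-range ones r was 0.62 (exact permutation p = 0.0688) and rho 0.37 (exact permutation p = 0.336), and r fell to -0.55 without its 2 farthest libraries, so in that range it rested on those libraries. In the 6 MEHP libraries r was 0.97 (exact permutation p = 0.00556, adjusted p = 0.0389) and rho 0.89 (exact permutation p = 0.0333, adjusted p = 0.233). Of the other members only Irx3 passed by rank over the 15 vehicle libraries, in the other direction (rho = -0.67, permutation p = 0.00769, adjusted p = 0.0269), while its r was -0.49 (permutation p = 0.0575, adjusted p = 0.101). For Lgr5 over these libraries rho was -0.05 (permutation p = 0.864). Its r of -0.59 became 0.055 without the 2 libraries farthest from the median sum. Without the 2 libraries of low marker sum, a choice made after seeing the data, Rspo1 with ATRA was -0.46 (adjusted p = 0.0317, edgeR) and with MEHP 0.10 (adjusted p = 0.845). In the surface marker list 1 of 8 genes, Krt19, rose with ATRA (log2 1.49 ± 0.35, adjusted p = 0.00223, edgeR) and 0 passed with MEHP (edgeR; 0 at an unadjusted p under 0.05, 0 in DESeq2 and 0 in limma-voom). The part of the epithelium in the ATRA value of Rspo1 was not tested.

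**Figure D2:**
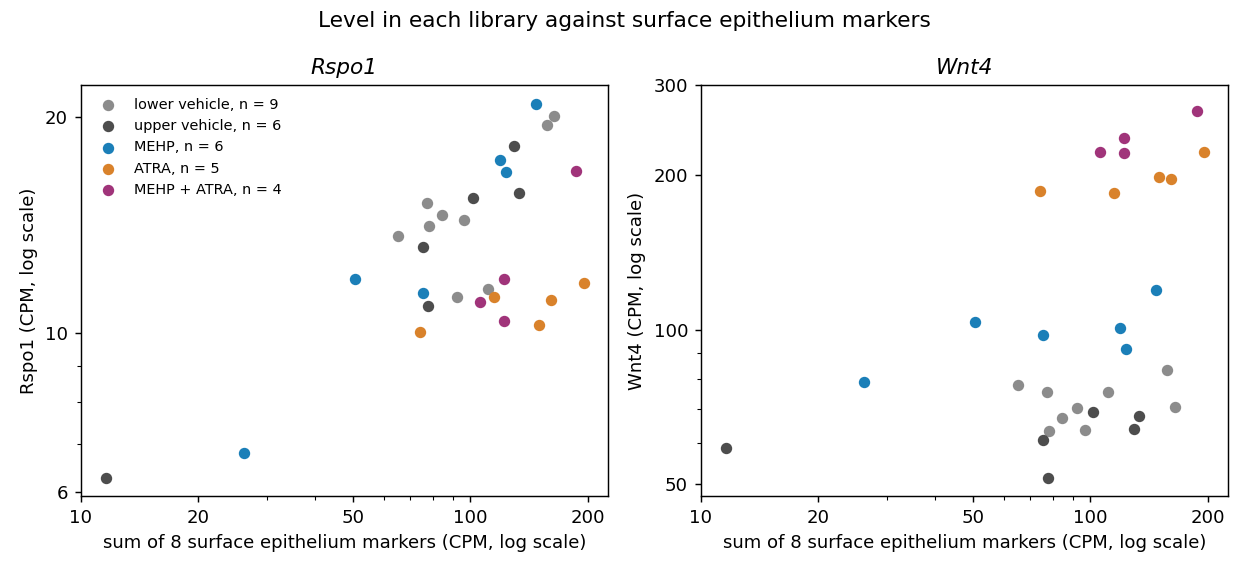
Level of Rspo1 (left) and of Wnt4 (right) in each of the 30 libraries against the summed CPM of 8 surface epithelium markers, both axes logarithmic and coloured by group. The 2 libraries at the far left, with sums of 11.6 and 26.2 CPM, have the lowest Rspo1 (6.28 and 6.80 CPM). Wnt4 in all 9 libraries with ATRA lies above every other library, whatever the marker sum.

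Lgr5 (ENSMUSG00000020140, chr10:115450311-115587780, minus strand), a receptor for R-spondins, rose in both groups with ATRA and not with MEHP alone. Vehicle libraries held 7.42, 8.21 and 10.3 CPM (lowest, median, highest) in the lower range and 7.54, 9.01 and 12.9 CPM in the upper range. ATRA libraries held 9.72, 15.2, 12.3, 10.5 and 11.1 CPM, and MEHP + ATRA libraries 19.9, 13.04, 15.1 and 13.03 CPM.
Of the 5 ATRA libraries 4 were above every lower-range vehicle library, as were all 4 with both compounds. The log2 fold change was 0.46 ± 0.13 with ATRA (adjusted p = 0.0116, edgeR) and 0.83 ± 0.14 with both (adjusted p = 1.56e-05). The ATRA call rested on 1 library, since without ATRA replicate 2 the value was 0.35 (adjusted p = 0.0854). With MEHP Lgr5 ran from 7.72 to 13.1 CPM with a median of 9.46, overlapping vehicle, and differed by 0.0093 ± 0.14 (adjusted p = 0.989).

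Wnt4 (ENSMUSG00000036856, chr4:137277489-137299726, plus strand), the WNT ligand of the pathway, rose in all 3 treatments and was the most abundant member per length. Vehicle libraries held 63.3, 70.5 and 83.5 CPM in the lower range and 51.4, 62.5 and 68.9 CPM in the upper range. With MEHP the 6 libraries held 79.2, 99.2 and 119 CPM (lowest, median, highest), all above the 6 vehicle libraries of their range. With ATRA the values were 197, 186, 222, 198 and 185 CPM, and with both compounds 221, 267, 222 and 236 CPM.
All libraries with ATRA lay above all vehicle and MEHP libraries. The log2 fold change was 0.67 ± 0.08 with MEHP (1.59-fold, adjusted p = 1.66e-06, edgeR), 1.46 ± 0.08 with ATRA (2.75-fold, adjusted p = 3.24e-15) and 1.72 ± 0.08 with both (3.29-fold, adjusted p = 1.36e-16). Vehicle libraries of the upper range were lower than those of the lower range by log2 -0.22 ± 0.08, which did not pass (adjusted p = 0.182). In none of the 6 comparisons did leaving out 1 library end or add a call for Wnt4.
Markers of interstitial stroma were read beside Wnt4. The sum of 8 such markers, of which the collagen gene Col3a1 made up 2996 CPM in lower-range vehicle (mean), was 3949 to 4575 CPM with ATRA and 3794 to 4284 with both compounds, below the 5254 to 5727 CPM of lower-range vehicle. In that list 4 of 8 fell and 1, Dcn (log2 1.04, adjusted p = 1.23e-07, edgeR), rose with ATRA, the same counts held with both compounds, and with MEHP 1 fell and 7 did not pass (median log2 -0.00111). The part of stromal cells in the Wnt4 values was not tested.

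Foxl2 (ENSMUSG00000050397, chr9:98955607-98956847, plus strand), the forkhead factor that defines granulosa cells, showed the largest rise among the 7 with ATRA. Lower-range vehicle libraries held 1.72, 2.57 and 3.46 CPM (34 to 78 counts) and upper-range ones 0.796, 3.10 and 4.004 CPM (15 to 76 counts). ATRA libraries held 13.7, 12.9, 11.5, 11.7 and 11.8 CPM, and MEHP + ATRA libraries 12.51, 12.2, 11.3 and 11.3 CPM. The 9 libraries with ATRA formed a narrow band far above all vehicle libraries.
The log2 fold change was 2.23 ± 0.21 with ATRA (4.68-fold, adjusted p = 1.92e-09, edgeR) and 2.17 ± 0.22 with both (4.49-fold, adjusted p = 4.59e-09). The coefficient of variation between libraries was 24.6% and 43.4% in the vehicle ranges, 7.59% with ATRA and 5.14% with both, where counting error alone gives 13.4%, 13.5%, 5.98% and 6.09%. The spread was above counting error in both vehicle ranges and near it in both groups with ATRA.
With MEHP alone Foxl2 was 2.36, 5.21 and 6.06 CPM (lowest, median, highest), and 4 of 6 libraries were above every upper-range vehicle library. Its log2 fold change of 0.72 ± 0.24 did not pass (adjusted p = 0.0902, edgeR). The call depended on the analysis, since it passed in DESeq2 (0.71, adjusted p = 0.0407), without a range term (0.79, adjusted p = 0.00595), without MEHP replicate 2 (0.85, adjusted p = 0.0246) and without vehicle replicate 3 (0.84, adjusted p = 0.0457), and the adjusted p ran from 0.00595 to 0.421 over the alternatives other than leaving out single libraries, the highest being that of the upper range fitted alone (0.71). The gene model in the files is shorter than that of GENCODE M21 (98955288 to 98958543), so reads on the remaining exon sequence were not counted for Foxl2.

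Runx1 (ENSMUSG00000022952, chr16:92601466-92826149, minus strand), a transcription factor of supporting cells and of blood cells, rose in both groups with ATRA. Vehicle libraries held 2.16, 2.52 and 3.82 CPM in the lower range and 2.12, 2.84 and 3.85 CPM in the upper range. ATRA libraries held 4.92, 6.37, 6.23, 6.46 and 5.64 CPM, and MEHP + ATRA libraries 11.4, 8.19, 7.20 and 7.05 CPM. Every ATRA library was above every vehicle library, and every library with both compounds was above every ATRA library. The difference between those 2 groups did not pass (log2 0.51 ± 0.18, adjusted p = 0.135, edgeR). MEHP libraries held 2.83, 3.30 and 4.58 CPM (lowest, median, highest) and overlapped upper-range vehicle, with 2 of 6 above all of it.
The log2 fold change was 1.13 ± 0.15 with ATRA (2.18-fold, adjusted p = 1.57e-06, edgeR), 1.64 ± 0.16 with both (3.12-fold, adjusted p = 1.22e-09) and 0.28 ± 0.17 with MEHP alone (adjusted p = 0.48). Markers of macrophages and other blood cells, which also express Runx1, gave 0 calls of 9 in each treatment in edgeR, DESeq2 and limma-voom, with 1 at an unadjusted p under 0.05 with MEHP, 1 with ATRA and 0 with both. Their sum was 34.9 to 55.4 CPM with ATRA and 38.8 to 42.9 with both against 38.5 to 55.2 in lower-range vehicle. Runx1 shares 106 exon bases with Gm26626 on the other strand, and since the strand setting is not given, reads there cannot be told apart.

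Irx3 (ENSMUSG00000031734, chr8:91798525-91802067, minus strand) and Irx5 (ENSMUSG00000031737, chr8:92357625-92376286, plus strand), homeobox genes of one cluster, were the least counted members. Irx3 held 0.817, 1.15 and 1.63 CPM in lower-range vehicle and 1.35, 1.61, 1.82, 2.15 and 1.84 CPM with ATRA. Of the ATRA libraries 3 were above all vehicle libraries of the range, and the log2 fold change of 0.56 ± 0.21 did not pass (adjusted p = 0.0548, edgeR). It passed in 7 of 30 fits that each left out 1 library (ATRA replicate 1, vehicle replicate 3, 5, 6 or 13, MEHP + ATRA replicate 1 or MEHP replicate 4), with values of 0.56 to 0.64 in those 7 and adjusted p from 0.0282 to 0.162 over all 30. It also passed in limma-voom (0.66, adjusted p = 0.00279) and in the lower range alone (0.56, adjusted p = 0.0384).
With both compounds Irx3 was 0.993, 1.77, 1.22 and 2.00 CPM (0.34 ± 0.22, adjusted p = 0.289), and with MEHP 0.721 to 1.37 CPM against 0.961 to 2.16 in upper-range vehicle (-0.45 ± 0.23, adjusted p = 0.363). All these groups overlapped their vehicle libraries. Irx3 shares 124 exon bases with the antisense gene Irx3os, whose reads cannot be told apart from it there.
Irx5 rested on 1 to 24 counts per library. It held 0.202, 0.318 and 0.527 CPM in lower-range vehicle, 0.451, 0.524, 0.802, 0.615 and 0.316 CPM with ATRA, and 0.777, 0.419, 1.08 and 0.244 CPM with both compounds. Of the 4 libraries with both compounds 2 were above all lower-range vehicle libraries.
The log2 fold change of Irx5 was 0.75 ± 0.34 with ATRA (adjusted p = 0.133, edgeR) and 0.95 ± 0.35 with both, which passed (adjusted p = 0.0421). The call with both compounds ended in 8 of 30 fits that left out 1 library. The value was 0.56 (adjusted p = 0.331) without MEHP + ATRA replicate 3, 0.83 (adjusted p = 0.134) without MEHP + ATRA replicate 1, and 0.88 to 0.95 (adjusted p = 0.0515 to 0.0672) without vehicle replicate 1, 7, 8, 9, 13 or 15. It also ended in DESeq2 (0.96, adjusted p = 0.0596), in limma-voom (0.78, adjusted p = 0.0598) and with no filter on low counts (0.96, adjusted p = 0.0762). With MEHP it was 0.0488 to 0.368 CPM against 0.0931 to 0.400 in vehicle (-0.51 ± 0.44, adjusted p = 0.673).

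**Figure D3:**
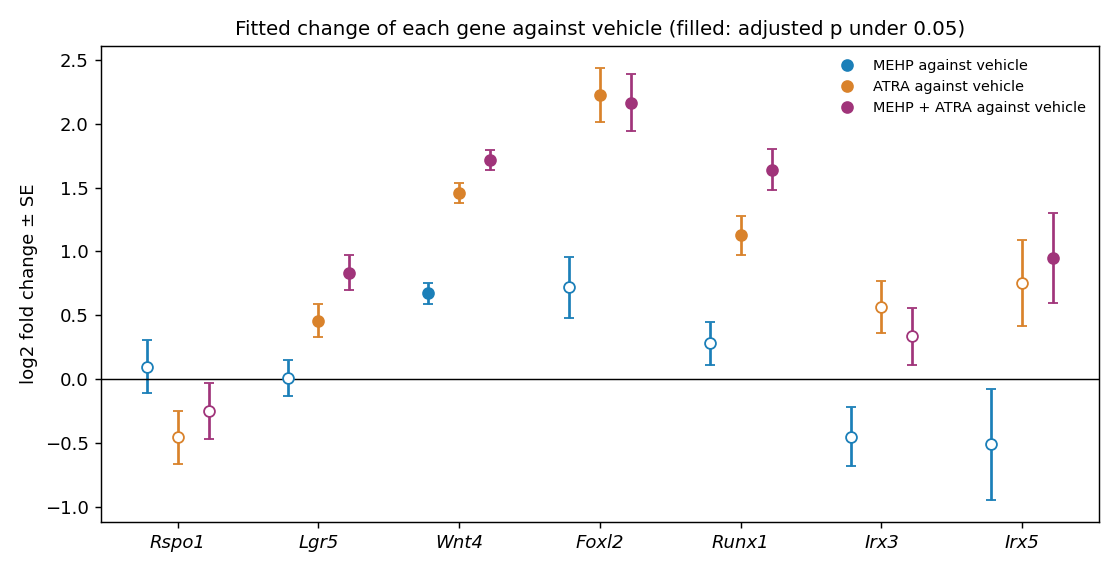
Fitted log2 fold change ± SE of each gene against vehicle of the same range with MEHP, ATRA and MEHP + ATRA, in the order ligand, receptor, ligand, transcription factors. Filled points passed an adjusted p of 0.05 in edgeR. Foxl2 has the highest value with ATRA (2.23) and Rspo1 values below 0 in both groups with ATRA.

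Compared per kilobase of exon, the members kept their order among vehicle libraries and changed it with ATRA. In lower-range vehicle the mean level was 17.2 ± 1.62 CPM per kb for Wnt4 (SD, n = 9), 7.69 ± 1.59 for Rspo1, 2.12 ± 0.521 for Foxl2, 0.833 ± 0.105 for Lgr5, 0.426 ± 0.104 for Irx3, 0.228 ± 0.0488 for Runx1 and 0.104 ± 0.0320 for Irx5. Only the neighbours Irx3 and Runx1 overlapped in range there. The upper-range vehicle order was the same, with overlaps of Foxl2 with Lgr5 and of Lgr5 with Irx3.
With ATRA Foxl2 stood at 9.94 ± 0.754 CPM per kb (SD, n = 5), above Rspo1 at 5.61 ± 0.365 in every library, and Wnt4 at 47.1 ± 3.56. With both compounds Foxl2 was again above Rspo1 without overlap (9.53 ± 0.489 against 6.47 ± 1.504; SD, n = 4), and Runx1 at 0.715 ± 0.171 overlapped Irx3 at 0.541 ± 0.169. With MEHP alone Rspo1 (7.32 ± 2.63, n = 6) and Foxl2 (3.77 ± 1.20) overlapped.

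**Figure D4:**
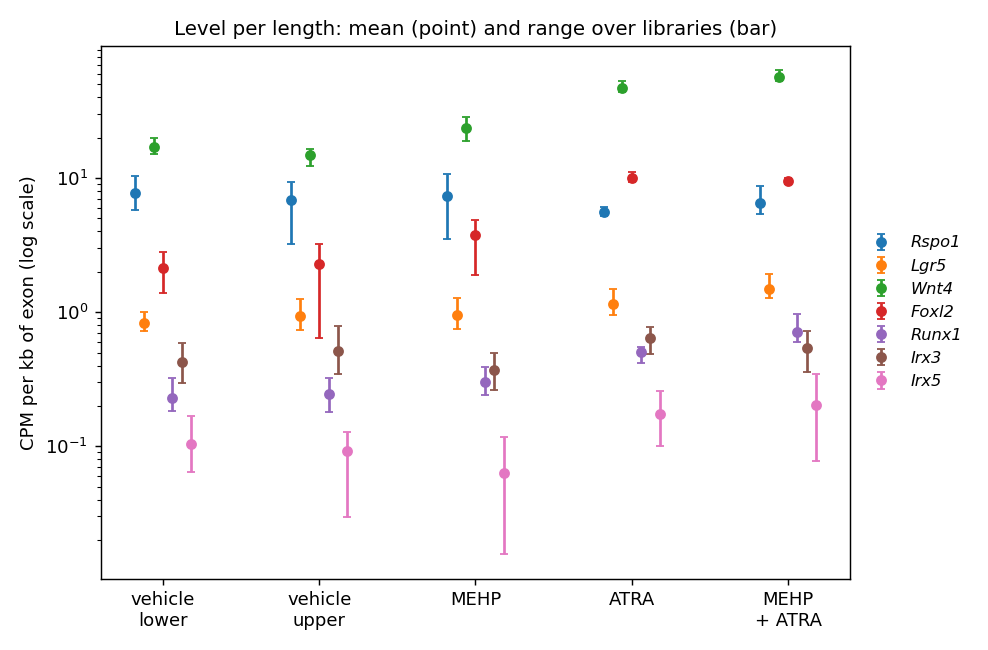
Level of each gene in CPM per kb of exon (logarithmic axis) by group; points are means and bars the range over libraries. Foxl2 lies below Rspo1 in both vehicle ranges and above it in both groups with ATRA. The order between genes depends on the exon lengths used.

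Adding MEHP to ATRA left all 7 genes short of the threshold (0 called in edgeR, 3 at an unadjusted p under 0.05), while 3% of all genes changed. The 3 were Wnt4 (log2 0.26 ± 0.09, adjusted p = 0.15), Runx1 (0.51 ± 0.18, adjusted p = 0.135) and Lgr5 (0.38 ± 0.15, adjusted p = 0.248), all higher with both compounds. Foxl2 differed by -0.06 ± 0.25 (adjusted p = 0.957). In limma-voom 1 of 7 passed, Wnt4 (0.26, adjusted p = 0.0372), and in DESeq2 0 of 7.
The interaction, the change MEHP made on top of ATRA less the change it made alone, passed for 0 of 7 genes (0.0311% of all genes), with 2 at an unadjusted p under 0.05, and for 0 of 7 in DESeq2 and in limma-voom. Those were Wnt4 (-0.41 ± 0.12, adjusted p = 0.495) and Foxl2 (-0.78 ± 0.35, adjusted p = 1.0), both below 0. It sets libraries of both title ranges against each other and so rests on the range term. Between the ranges 0 of 7 genes passed in vehicle (1, Wnt4, at an unadjusted p under 0.05; 0 in DESeq2 and in limma-voom), with 0.373% of all genes called.

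Other genes of fetal ovarian supporting cells and granulosa cells, in a list of 16 with Cyp19a1 too low to test, moved in both directions. Genes of this list are also expressed in the fetal testis. In lower-range vehicle Inha averaged 376 CPM and Amhr2 95.5 CPM, and Nr2f2 is also among the stroma markers. The cells behind these values were not tested. With ATRA 3 of 15 rose and 3 fell (median log2 -0.04), with both compounds 4 rose and 3 fell (-0.12), and with MEHP 1 rose and 1 fell (-0.08). Over all genes tested, 18.1%, 29% and 4.72% changed in these comparisons. Nr0b1, a nuclear receptor that opposes testis determination when in excess, rose by 2.23 ± 0.12 with ATRA (adjusted p = 3.66e-15, edgeR), 2.54 ± 0.12 with both and 0.48 ± 0.13 with MEHP. Bmp2, a growth factor of pregranulosa cells, rose by 0.33 ± 0.10 with ATRA (adjusted p = 0.0238) and 0.57 ± 0.11 with both (adjusted p = 0.000139). The estrogen receptor gene Esr2 rose with both (0.68 ± 0.17, adjusted p = 0.00221). The AMH receptor gene Amhr2 rose with ATRA (0.42 ± 0.10, adjusted p = 0.00379) and with both (0.40 ± 0.11, adjusted p = 0.00631).
Hsd17b1, which makes estradiol in adult granulosa cells and is expressed in fetal Sertoli cells, fell by 1.09 with MEHP, 2.04 with ATRA and 3.98 with both on the log2 scale (adjusted p = 5.73e-06, 1.36e-11 and 6.92e-16 in edgeR). Inha, the inhibin alpha subunit, and Fzd1, a WNT receptor, fell with ATRA (-0.60 ± 0.13 and -0.27 ± 0.06). Both genes also fell with MEHP + ATRA (-0.54 ± 0.14, adjusted p = 0.0031, and -0.23 ± 0.07, adjusted p = 0.0131). Fst, a WNT4 and FOXL2 target in the ovary that encodes follistatin, did not pass with ATRA (-0.35 ± 0.28, adjusted p = 0.48), with both (-0.69 ± 0.31, adjusted p = 0.0996) or with MEHP (-0.70 ± 0.29, adjusted p = 0.22).

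Beyond Wnt4, Rspo1 and Lgr5, 29 genes of WNT and R-spondin signalling were tested. Over all genes tested, 9.06% rose with ATRA, 14.3% with both compounds and 2.88% with MEHP. With ATRA 3 rose and 0 fell (median log2 0.02), where DESeq2 called 4 and limma-voom 7. With both compounds 5 rose and 2 fell (-0.04), where DESeq2 called 7 and limma-voom 14, and with MEHP 0 passed in edgeR (4 at an unadjusted p under 0.05, 1 in DESeq2, 0 in limma-voom). Wif1, a secreted WNT inhibitor, rose by 1.27 ± 0.22 with ATRA (adjusted p = 4.53e-05) and 1.24 ± 0.23 with both (adjusted p = 7.84e-05). Tnfrsf19, a beta-catenin target, rose with ATRA (0.71 ± 0.17, adjusted p = 0.00366) and with both (0.58 ± 0.19, adjusted p = 0.0191). The WNT binding protein gene Sfrp1 rose by 0.24 ± 0.07 and 0.29 ± 0.08.
Rspo3, the R-spondin of blood vessels and stroma, fell with both compounds (-0.73 ± 0.19, adjusted p = 0.00289, edgeR), where Lrp6 (0.18 ± 0.05) and Apc (0.22 ± 0.06) rose. The other fall with both compounds was that of Lef1, a transcription partner of beta-catenin (-0.61 ± 0.20, adjusted p = 0.0182). The feedback gene Axin2, commonly read as a measure of beta-catenin activity, did not pass with ATRA (-0.08 ± 0.09, adjusted p = 0.655), with both (-0.14 ± 0.10, adjusted p = 0.335) or with MEHP (-0.14 ± 0.10, adjusted p = 0.56). Axin2 and Lef1 were named after their values were seen.

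Of 8 paralogs and partners, 7 were tested (Irx6 was too low). With ATRA 0 passed (edgeR; 0 at an unadjusted p under 0.05, 0 in DESeq2 and 0 in limma-voom), with MEHP 1 rose and with both compounds 2 rose. Cbfb, which encodes the partner subunit of RUNX proteins, rose by 0.25 ± 0.05 with MEHP (adjusted p = 0.00289) and 0.26 ± 0.06 with both (adjusted p = 0.000399). Irx1 rose with both (1.55 ± 0.46, adjusted p = 0.00928) from a mean of 0.167 CPM in lower-range vehicle.

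Genes listed for the testis pathway of the supporting lineage were counted in the same way. The list was not limited to genes that act in the testis alone, and Nr5a1 is also among the Leydig cell markers. The cells behind these values were not tested. Of 16 tested genes (Sry was too low) 7 rose and 2 fell with ATRA (median log2 0.22), 8 rose and 2 fell with both (0.28), and 2 rose and 1 fell with MEHP (0.06). The share of all genes that rose was 9.06%, 14.3% and 2.88% in the same order. Sox9, the factor that Foxl2 represses in granulosa cells, rose together with Foxl2 with ATRA (0.81 ± 0.14, adjusted p = 5.14e-05, edgeR). Sox9 also rose with both compounds (1.28 ± 0.14, adjusted p = 2.56e-08) and with MEHP alone (0.62 ± 0.15, adjusted p = 0.0084), where Foxl2 did not pass. Dmrt1 (0.61 ± 0.09), Wt1 (0.63 ± 0.08) and Sox10 (0.88 ± 0.19) also rose with ATRA. Fgf9, the growth factor that opposes Wnt4, rose by 0.59 ± 0.16 with MEHP, 0.55 ± 0.15 with ATRA and 1.40 ± 0.15 with both. Amh, the Sertoli cell hormone, fell in each (-0.63 ± 0.15 with MEHP, -0.61 ± 0.14 with ATRA, -1.11 ± 0.16 with both).

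**Figure D5:**
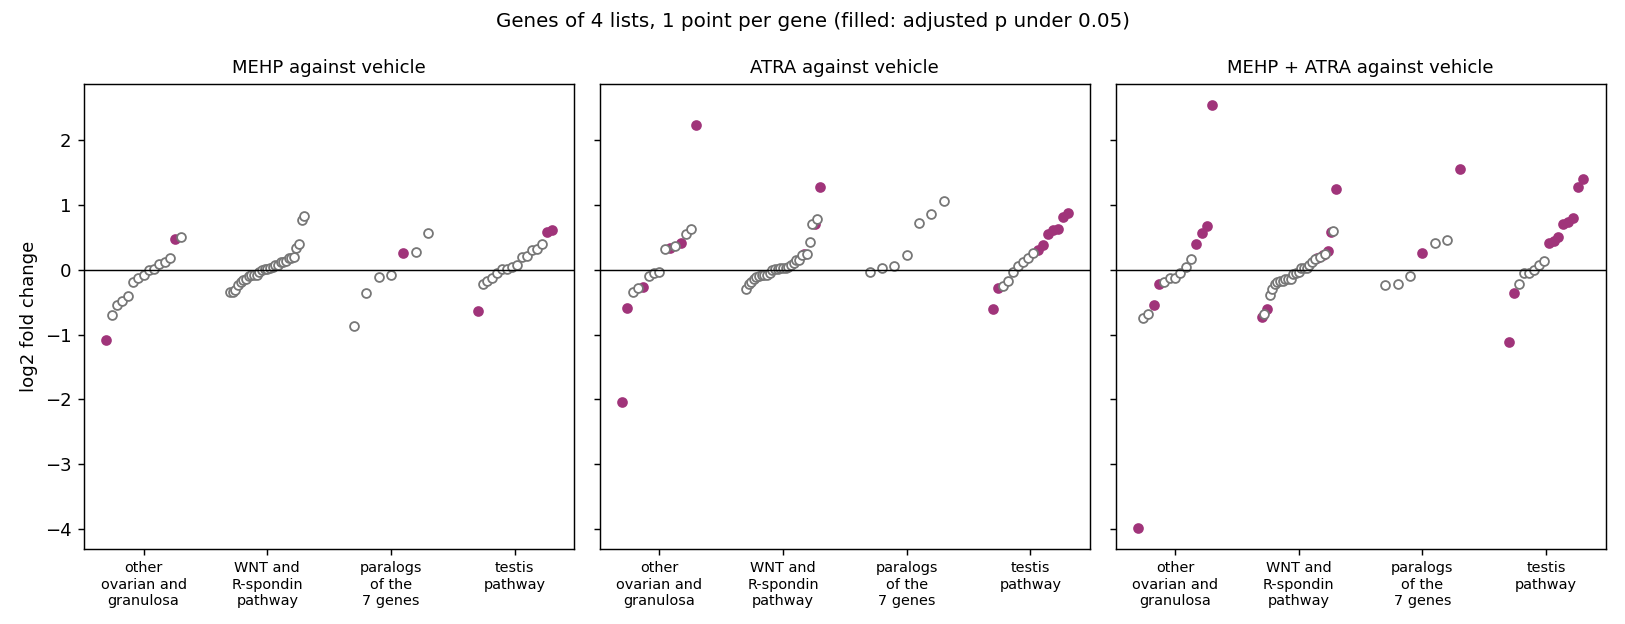
Log2 fold change of each tested gene of 4 lists (other ovarian and granulosa genes, WNT and R-spondin pathway, paralogs, testis pathway) in each treatment against vehicle; 1 point per gene, filled where the adjusted p was under 0.05. In the testis list 7 of 16 genes rose with ATRA, and in the WNT list 3 of 29, while 9.06% of all genes tested rose.

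Markers of the other cell types were counted beside these changes. Of all genes tested, 9.06% rose with ATRA, 2.88% with MEHP and 14.3% with both compounds, and 18.1%, 4.72% and 29% changed. With ATRA 6 of 10 Sertoli markers rose and 2 fell, while their sum, 2151 to 2486 CPM, lay within the 1791 to 2717 of lower-range vehicle. Amh, which fell, made up a large part of this sum, with means of 1024 CPM in lower-range vehicle and 671 CPM with ATRA. The sum therefore does not show the rises of the other markers. Of 7 Leydig cell markers 1 rose, of 8 germ cell markers 0 passed (edgeR; 2 at an unadjusted p under 0.05, 1 in DESeq2, 3 in limma-voom), of 8 endothelial markers 1 rose and of 8 mesonephros and rete testis markers 1 rose (Pax2, 2.57 ± 0.24, adjusted p = 1.23e-09, edgeR) and 1 fell (Krt8). With MEHP 3 of 10 Sertoli markers rose and 1 fell, 4 of 8 endothelial markers rose, and 0 of 7 Leydig, 0 of 8 germ cell and 0 of 8 mesonephros markers passed (edgeR; 0, 0 and 3 at an unadjusted p under 0.05, and 0 in each by DESeq2 and limma-voom). With both compounds 6 of 10 Sertoli markers rose and 1 fell, 1 of 7 Leydig markers rose, 1 of 8 endothelial markers rose and 1 fell, and 1 of 8 mesonephros markers rose and 2 fell. Of 8 germ cell markers 2 fell with both compounds, Nanos3 (-1.54 ± 0.34, adjusted p = 0.000648, edgeR) and Dppa3 (-1.08 ± 0.39, adjusted p = 0.0352). The part of these cell types in the values of the 7 genes was not tested.

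The genes most alike to each member that passed were sought among 13080 tested genes by the root mean square difference of centred mean log2 CPM over the 5 groups. Foxl2 was nearest to Hoxb4 (0.0506) and C2cd4c (0.0687), and Wnt4 to Il27ra (0.0668) and Capn6 (0.079). Enpp1 was among the genes nearest to Runx1 (0.0785). Lgr5 was nearest to Spry1 (0.0458) and Kcnk2 (0.0575), and Irx5 to Dgkk (0.0376) and Nefh (0.0575). Hoxb4, for example, changed by 0.63 ± 0.21 with MEHP (adjusted p = 0.094, edgeR) and rose by 2.202 ± 0.19 with ATRA (adjusted p = 1.46e-10). These values follow from the choice of Hoxb4 by its likeness over the same libraries and are no separate evidence of a link.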

How the data were processed

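RNA was measured by poly(A)-enriched sequencing in 30 cultures. Each library has its own deposited table of unnormalized gene counts with featureCounts columns, per the file headers. The submitters' processing notes name STAR 2.5.2b, Subread 1.5.2 with featureCounts, Trimmomatic 0.36, bcl2fastq 2.20 and DESeq2, with no order. Build, annotation release and strand setting: not given in the sources used here. Gene spans equalled those of GENCODE M21 (GRCm38) for 91.36% of matched genes, so coordinates are those of the files on that frame. Symbols were matched by identifier for 99.3% of genes.

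Counts were fitted in edgeR 4.0.16 (R 4.3.3). The filter filterByExpr (minimum count 10) left 19323 genes, all 7 members among them. Scaling was by TMM (factors 0.975 to 1.023). One quasi-likelihood model over the 30 libraries held treatment and title range, with 25 residual degrees of freedom. Tests were two-sided, with Benjamini-Hochberg adjustment over all genes and a threshold of 0.05. Adjusted p-values are from this test unless another tool is named. Levels are CPM on TMM-scaled library sizes. The script was tested on simulated counts. Correlations used permutation tests (100000 draws, exact for 9 or fewer libraries).

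The members and gene lists were chosen with earlier results of these data known. Named genes were all members, up to 5 called genes of smallest p per list and treatment, a small fixed panel, and the 2 genes most alike to each member that passed. A gene that this rule takes is not reported here. Replicate numbers are in accession order and only name libraries. The labels do not tie libraries to animals or litters. The p-values therefore cover the spread between these libraries, which may be technical. Alternatives were other scaling, DESeq2 1.42.0, limma-voom 3.58.1, no filter, other handling of the range, blocks on the first title number and leaving out each library.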

Additional observations from a re-analysis of the deposited data

How the results depend on the processing

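Over 42 member results and all alternatives, 1557 of 1607 values kept their direction and side of the threshold, 14 lost a call, 19 gained one and 17 changed sign; each sign change was of a value that had not passed. The calls of Wnt4 in all 3 treatments, and of Foxl2 and Runx1 with ATRA and with both compounds, held in every alternative run. The cause of the changes was not tested.

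Sign changes: Rspo1 with MEHP was -0.016 in limma-voom and -0.0058 without a range term, and -0.046 to 0.24 when 1 library was left out; Lgr5 with MEHP ran from -0.093 to 0.12, Irx5 in MEHP + ATRA against ATRA from -0.18 to 0.47, the Rspo1 interaction from -0.061 to 0.26 and the Foxl2 range difference from -0.015 to 0.30 in such fits. The Irx5 range difference was 0.0071 without the pair of libraries low in surface markers, and ran from -0.29 to 0.0073 with 1 library left out.

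Genes called are given as a percent of the 19323 genes tested. With MEHP (4.72%) they were 11.5% without a range term and 2.14% within the upper range only. Members called with MEHP (1) were 2 in DESeq2, without a range term and without the pair low in surface markers (chosen after seeing the data), and 1 to 2 with 1 library left out. With ATRA (18.1%) limma-voom called 28.6%. In MEHP + ATRA against ATRA (3% of genes, 0 members) limma-voom called 8.57% and 1 member, the lower range alone 4.94%, and leaving out 1 library gave 1.76% to 3.57%, lowest without MEHP + ATRA replicate 1. The interaction (0.0311%) gave 0.0621% in DESeq2, 0.0518% in limma-voom, without a range term and without the low-marker pair, and 0.0155% to 0.0414% with 1 library left out. The range difference (0.373%) gave 1.75% in DESeq2, 0.704% in limma-voom, 0.0983% without a filter, 0.0932% without the pair, and 0.0518% to 0.875% with 1 library left out.

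Same-numbered vehicle and treated libraries (first title number) correlated best with each other for 9 of 9 numbers, but in 2 of 9 at 0.0875 and 0.0832, so the numbers were not taken as pairs. With a replicate block over both ranges, MEHP + ATRA against ATRA called 7.1% of genes and 1 member (Wnt4, 0.36, adjusted p = 0.0198), the interaction 0.0155% and the range difference 0.217%. With a block within each range the interaction called 0.0104%, and Foxl2 in MEHP + ATRA against ATRA was 0.090. Irx5 with both compounds missed the threshold under both blocks (adjusted p = 0.0745 and 0.0616), and no other member changed its call against vehicle.

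Irx5 rested on 1 to 24 and Irx3 on 13 to 50 counts per library, which limits the precision of both.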
